A study of Mus musculus with 15 samples.

Results

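The cytochrome P450 genes described here were the 92 genes of the count table whose symbol is Cyp followed by a family number, subfamily letters and a member number, with Cyp27b1 and Cyp24a1 left out, of 24421 genes in all. They were chosen by name, with earlier results of these data known, and no measured value entered the rule itself. Kidney RNA of wild-type (WT) mice was sequenced 14 days after the operation in 15 libraries. The UUO_Si group held 6 libraries from mice with the UUO operation on the Si-based diet, the UUO group 6 libraries from mice with the same operation on normal diet, and the sham group 3 libraries from sham-operated mice on normal diet. UUO is the usual short form of unilateral ureteral obstruction, which the labels do not spell out. The labels give no age, no sex, no pooling, no account of which kidney was taken and no description of the Si-based agent. No sham-operated group received the Si-based diet, so the diet could be compared within the obstructed kidney alone. Xist lay between 1095 and 2544 CPM (counts scaled to a common library total) in the 15 libraries, and the Y-linked Uty, Kdm5d and Eif2s3y had a median of 0 CPM in each group.

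P450 enzymes are haem proteins that put an oxygen atom into a lipid, steroid, vitamin or drug. Those of the endoplasmic reticulum take electrons from P450 oxidoreductase (Por), and those of mitochondria take them from ferredoxin (Fdx1) and its reductase. In the rodent kidney the proximal tubule is known as the main site of the Cyp4a fatty acid hydroxylases and of Cyp2j5, which makes epoxides of arachidonic acid, while other families act on sterols, bile acid precursors and retinoic acid.

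Library totals were 7754724 to 11465936 counts in the UUO_Si group, 11151023 to 15422613 counts in the UUO group and 5526642 to 8308121 counts in the sham group. In 4 libraries, UUO_Si replicate 6, UUO replicates 5 and 6 and sham replicate 3, 828 to 1281 of 1456 olfactory and vomeronasal receptor genes had counts, against 101 to 166 in the other 11 libraries. These are called the receptor-gene libraries below. UUO_Si replicate 6 and UUO replicates 5 and 6 also carry sample codes that begin with another digit than those of the rest of their groups, which sham replicate 3 does not, and the labels do not explain the codes. Of the 92 P450 genes, 52 had enough counts to be tested (over 1.01 CPM in at least 3 libraries), as did 16752 genes of the whole table. The other 40 included 14 of 15 Cyp2c genes, 6 of 7 Cyp3a genes, Cyp7a1, Cyp11a1, Cyp19a1 and Cyp21a1. Of the 40, between 30 and 40 had counts in each receptor-gene library, and between 6 and 13 in each of the other 11. The 4 libraries held 82.6% of the counts of these 40 genes and 27.8% of all counts of the table, and 12 of the 40 had no count outside them.

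In the obstructed kidney on normal diet, transcripts of 15 of 24 tested genes of family 2 and 7 of 14 of family 4, the families of xenobiotic and fatty acid metabolism, were lower than in sham, and a smaller group that included Cyp4v3 and Cyp1b1 was higher. In UUO against sham, 26 of the 52 tested P450 genes fell and 9 rose at an adjusted p under 0.05 (edgeR quasi-likelihood test, adjusted over all tested genes by the Benjamini-Hochberg method). Of all tested genes 26.4% fell and 27.5% rose, 53.9% in all. The median log2 fold change was -1.20 over the tested P450 genes and -0.04 over all tested genes. Genes that passed the count filter through the sham libraries alone had to be lower in UUO. The count was therefore also taken over the 34 P450 genes above the cutoff in both groups, of which 19 fell and 9 rose. Of 17 such genes in family 2, 11 fell and 2 rose, and of 10 in family 4, 6 fell and 3 rose. This count leaves out the falls of Cyp2b9, Cyp2d12, Cyp2g1, Cyp2j8, Cyp4f14, Cyp17a1 and Cyp26a1, whose UUO means were under the cutoff. Of all tested genes, 15188 were above it in both groups, and of these 4164 fell and 4308 rose. The UUO and sham libraries did not overlap for 24 P450 genes that lay lower in every UUO library, against 22.3% of all tested genes, and for 8 that lay higher, against 24.6%. Without the receptor-gene libraries 25 P450 genes fell and 11 rose, where 4450 of 16294 tested genes fell and 4904 rose.

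**Figure D1:**
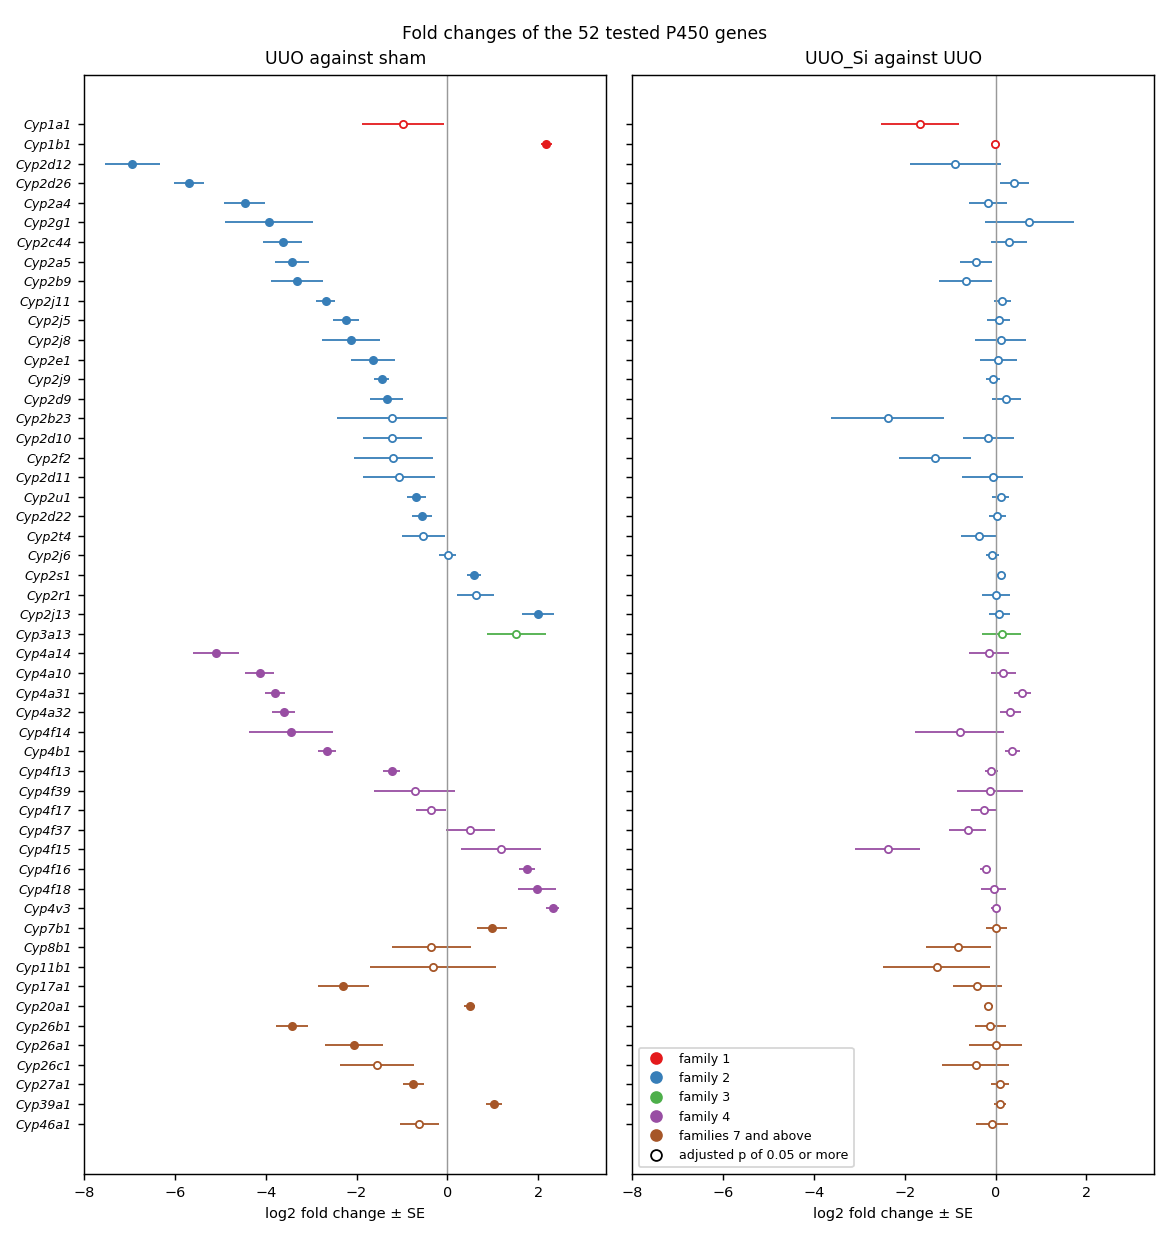
Log2 fold changes with standard errors (x axis) of the 52 tested P450 genes, ordered by family, for UUO against sham (left) and UUO_Si against UUO (right); filled points have an adjusted p under 0.05. The left panel runs from -6.94 (Cyp2d12) to 2.32 (Cyp4v3), and the right panel has no filled point.

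The summed level of the 92 genes was 895 ± 101 CPM in UUO_Si, 874 ± 116 CPM in UUO and 3221 ± 336 CPM in sham libraries (SD, n = 6, 6 and 3). All UUO libraries (790 to 1068 CPM) lay below all sham libraries (2875 to 3545 CPM). Its make-up also differed between the groups. Family 1, which here is almost wholly Cyp1b1, made up 25.6% ± 3.02 of P450 CPM in UUO_Si, 26.5% ± 2.51 in UUO and 1.64% ± 0.511 in sham libraries. Subfamily 4a made up 8.41% ± 2.11 in UUO_Si, 6.87% ± 1.54 in UUO and 35.9% ± 3.49 in sham libraries. Subfamily 2j held a like share in each group, at 28.9% ± 5.86 in UUO_Si, 28.6% ± 4.82 in UUO and 32% ± 0.886 in sham libraries, and its summed level was 254 CPM in UUO against 1029 CPM in sham.

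**Figure D2:**
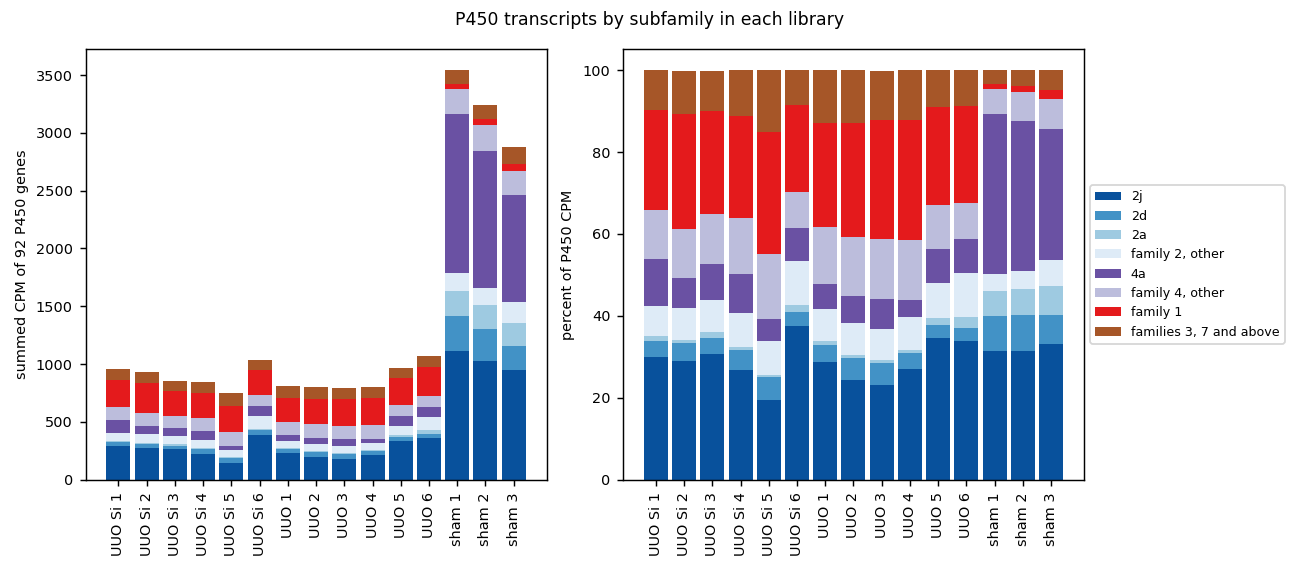
Summed CPM of the 92 P450 genes in each library (left) and the same as percent of P450 CPM (right), split by subfamily or family, with libraries along the x axis. The bars of the obstructed libraries end between 752 and 1068 CPM and those of sham between 2875 and 3545 CPM, and family 1 takes 25.6% (UUO_Si) and 26.5% (UUO) of the obstructed bars and 1.64% of the sham bars.

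Markers of tubule epithelium moved with this fall. Of all tested genes 26.4% fell and 27.5% rose, against which the marker counts below stand. Of 12 proximal tubule markers 11 fell in UUO against sham, and their summed level was 1149 CPM in UUO_Si, 1031 CPM in UUO and 17881 CPM in sham libraries, 17.3 times higher in sham than in UUO, where the P450 sum was 3.69 times higher. All 6 markers of collecting duct and loop of Henle fell as well, with sums of 1540 CPM in UUO and 5836 CPM in sham, and of 6 endothelial markers 3 fell and 2 rose. In bulk RNA, fewer cells of a type and less RNA per cell cannot be told apart, and the part of cell make-up in the P450 results was not tested. All 6 macrophage markers and all 6 fibroblast and mural markers rose in UUO, with sums of 899 and 6012 CPM in UUO against 120 and 348 CPM in sham. Among the obstructed libraries the proximal tubule sum was highest in UUO_Si replicate 6 (1756 CPM) and UUO replicate 6 (1599 CPM) and lowest in UUO_Si replicate 5 (563 CPM).

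Per kilobase of exon, the P450 transcripts of UUO_Si were led by Cyp2j5 (75.0 CPM per kb), Cyp1b1 (38.9), Cyp4a31 (16.6), Cyp2j11 (15) and Cyp27a1 (14.7 CPM per kb). In UUO the order was Cyp2j5 (71.4 CPM per kb), Cyp1b1 (39.2), Cyp27a1 (13.7), Cyp2j11 (13.5) and Cyp20a1 (12.8 CPM per kb). In sham it was Cyp2j5 (336 CPM per kb), Cyp4a14 (169), Cyp4a31 (153), Cyp4a10 (148) and Cyp2d26 (104 CPM per kb), with Cyp1b1 at 8.66 CPM per kb. Cyp4a14, Cyp4a31 and Cyp4a10 lay within 1 SD of each other in sham, as did Cyp27a1, Cyp2j11 and Cyp20a1 in UUO and Cyp4a31, Cyp2j11 and Cyp27a1 in UUO_Si, so their order there is not resolved.

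The promoters of 3 genes that rose (Cyp1b1, Cyp4v3 and Cyp2s1) and 2 that fell by a large factor (Cyp2a4 and Cyp2d26) are shown to let the reader compare their sequence. Each is the 250 bases before the gene's first listed RefSeq transcription start on GRCm38.p6, written 5′ to 3′ on the gene's strand. For Cyp2s1 the whole stretch lies inside the longer GENCODE gene, which runs to chr7:25816913. The stretches of Cyp4v3, Cyp2a4 and Cyp2d26 overlap the start of their GENCODE genes. Capitals mark GCGTG, the core of the site bound by the aryl hydrocarbon receptor (AhR), and the GC box with the letters GGGCGG. They also mark the TATA box with the letters TATAAA, and the reverse complement of each of these.
Cyp1b1, chr17:79715062-79715311, minus strand: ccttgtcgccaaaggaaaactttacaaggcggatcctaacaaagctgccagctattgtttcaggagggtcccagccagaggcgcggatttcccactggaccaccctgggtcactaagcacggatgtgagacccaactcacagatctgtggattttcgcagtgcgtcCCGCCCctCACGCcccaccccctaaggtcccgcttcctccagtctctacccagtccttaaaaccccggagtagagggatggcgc
Cyp4v3, chr8:45333164-45333413, minus strand: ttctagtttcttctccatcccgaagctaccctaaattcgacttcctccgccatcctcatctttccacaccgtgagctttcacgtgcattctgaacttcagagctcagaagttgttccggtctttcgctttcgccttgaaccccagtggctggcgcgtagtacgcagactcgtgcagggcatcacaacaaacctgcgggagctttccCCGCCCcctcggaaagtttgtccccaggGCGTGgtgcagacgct
Cyp2s1, chr7:25816526-25816775, minus strand: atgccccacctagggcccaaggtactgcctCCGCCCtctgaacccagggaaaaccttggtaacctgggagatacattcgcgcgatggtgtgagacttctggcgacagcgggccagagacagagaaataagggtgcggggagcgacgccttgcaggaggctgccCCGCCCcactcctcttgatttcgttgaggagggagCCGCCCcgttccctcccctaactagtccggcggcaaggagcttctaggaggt
Cyp2a4, chr7:26306942-26307191, plus strand: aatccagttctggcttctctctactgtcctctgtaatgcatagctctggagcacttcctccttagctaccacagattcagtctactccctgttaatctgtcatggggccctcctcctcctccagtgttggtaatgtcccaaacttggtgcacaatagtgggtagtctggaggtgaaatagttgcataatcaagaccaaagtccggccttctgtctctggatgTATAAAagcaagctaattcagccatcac
Cyp2d26, chr15:82794246-82794495, minus strand: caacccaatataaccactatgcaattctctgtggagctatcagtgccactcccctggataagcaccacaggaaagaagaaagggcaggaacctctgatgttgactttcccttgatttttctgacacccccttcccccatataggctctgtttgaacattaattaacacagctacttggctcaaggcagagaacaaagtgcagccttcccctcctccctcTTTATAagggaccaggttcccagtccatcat
RefSeq promoters were matched for 72 of the 92 genes, among them 17 that fell, 7 that rose and 15 tested genes that did not pass in UUO against sham. Cyp4a10, Cyp4a14 and Cyp2d12, which fell by large factors, had no matched promoter. Searched on both strands, GCGTG stood in 28.2% of all 27025 promoters of this length, in 5 of the 7 that rose (Cyp1b1, Cyp20a1, Cyp2j13, Cyp4f16 and Cyp4v3) and in 2 of the 17 that fell. GGGCGG stood in 32.9% of all promoters, in 6 of the 7 that rose and in 5 of the 17 that fell. TATAAA stood in 13% of all promoters, in none of the 7 and in 8 of the 17, Cyp2a4, Cyp2d26 and Cyp2j5 among them. AGGTCA, a nuclear receptor motif, stood in 13.8% of all promoters, in none of the 7 and in 2 of the 17, and its direct repeat with 1 base between (DR1) stood in 0.037% of all promoters and in no P450 promoter. TTGCNNAA, a motif of the C/EBP type, stood in 9.55% of all promoters, in 1 of the 7 and in 6 of the 17. The median GC content was 56.8% for the 7, 50% for the 17 and 52% for all promoters. These counts describe letters and not binding, and promoters of close paralogs were each counted.

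The fatty acid hydroxylases of subfamily 4a, which act on the end of the fatty acid chain, fell in all 4 tested cases in UUO against sham. Of all tested genes 26.4% fell. Cyp4a14 lay at 5.25, 7.52 and 26.4 CPM (lowest, median, highest) in UUO, against 513, 462 and 344 CPM in the 3 sham libraries. Every UUO library was far below every sham library, and UUO replicates 5 and 6 (24.3 and 26.4 CPM) were the highest of their group. The log2 fold change was -5.10 ± 0.50 (SE; edgeR adjusted p = 1.90e-07), and -6.21 without the receptor-gene libraries. Cyp4a10 lay at 10.8, 15.1 and 28.2 CPM in UUO, against 367, 320 and 252 CPM in sham, a log2 fold change of -4.13 ± 0.32 (edgeR adjusted p = 1.48e-08; -4.73 without the receptor-gene libraries). Cyp4a31 lay at 16.5, 30.3 and 32.2 CPM in UUO, against 469, 380 and 301 CPM in sham, and fell by 3.79 ± 0.22 on the log2 scale (edgeR adjusted p = 7.58e-10). For both genes the groups were far apart, and UUO replicate 4 was the low value for Cyp4a31. Cyp4a32 averaged 2.32 ± 0.769 CPM in UUO and 28.3 ± 3.16 CPM in sham (SD, n = 6 and 3). The 4 genes share sequence, with 46.8% of the 50-base words of Cyp4a32, 30.5% of Cyp4a10 and 21.7% of Cyp4a31 found in another gene, mainly each other, so the division of reads among these 3 is uncertain. Cyp4a14 shares 0.245% and is free of that limit.

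Next to them on chromosome 4 lies Cyp4b1, which hydroxylates fatty acids and activates some plant toxins. It lay at 15.5, 26.2 and 29.5 CPM in UUO, against 155, 153 and 142 CPM in sham. Without overlap, it fell by 2.65 ± 0.20 on the log2 scale (edgeR adjusted p = 7.58e-09). Across chr4:115106323-115647723 (GRCm38), 5 of the 7 P450 genes were tested and all 5 fell, against 26.4% of all tested genes.

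Subfamily 4f, whose members hydroxylate leukotrienes and long fatty acids, had members of both directions. Of 8 tested members 2 fell, 2 rose and 4 did not pass, shares close to the 26.4% and 27.5% of all tested genes. Cyp4f13 averaged 13.4 ± 3.07 CPM in UUO and 31.3 ± 6.83 CPM in sham (log2 fold change -1.23 ± 0.18, edgeR adjusted p = 1.83e-05). Cyp4f14 had a log2 fold change of -3.45 (-4.64 without the receptor-gene libraries). Its UUO mean was under the count cutoff, so the filter set its direction. Cyp4f16 lay at 12.8, 14 and 18.3 CPM in UUO, against 4.58, 4.79 and 3.78 CPM in sham, and all UUO libraries were above all sham libraries (log2 fold change 1.76 ± 0.18, edgeR adjusted p = 3.38e-07). Its paralogs share 26.5% of its 50-base words, Cyp4f37 above all. Cyp4f18, which in mouse is known from neutrophils and other myeloid cells, lay at 4.61, 5.27 and 6.61 CPM in UUO, against 0.286, 0.958 and 3.03 CPM in sham. The highest sham value was sham replicate 3, and the log2 fold change was 1.98 ± 0.42 (edgeR adjusted p = 7.90e-04), or 3.11 without that library. Cyp4f18 overlaps Zfp961 on the opposite strand, and the macrophage markers rose beside it; their part in its rise was not tested.

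Cyp4v3, a widely expressed fatty acid hydroxylase whose human counterpart is mutated in Bietti crystalline dystrophy of the retina, had the highest log2 fold change of the P450 genes with all 15 libraries. Without sham replicate 3, Cyp3a13 (4.95), Cyp4f18 (3.11) and Cyp2j13 (3.0) stood above it. It lay at 29.9, 37.0 and 44.4 CPM in UUO, against 7.58, 8.14 and 6.05 CPM in sham. No library of one group came near the other, and the rise was 4.99-fold (log2 fold change 2.32 ± 0.15, edgeR adjusted p = 1.91e-09). UUO_Si libraries lay at 32.5, 36.5 and 41.2 CPM.

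**Figure D3:**
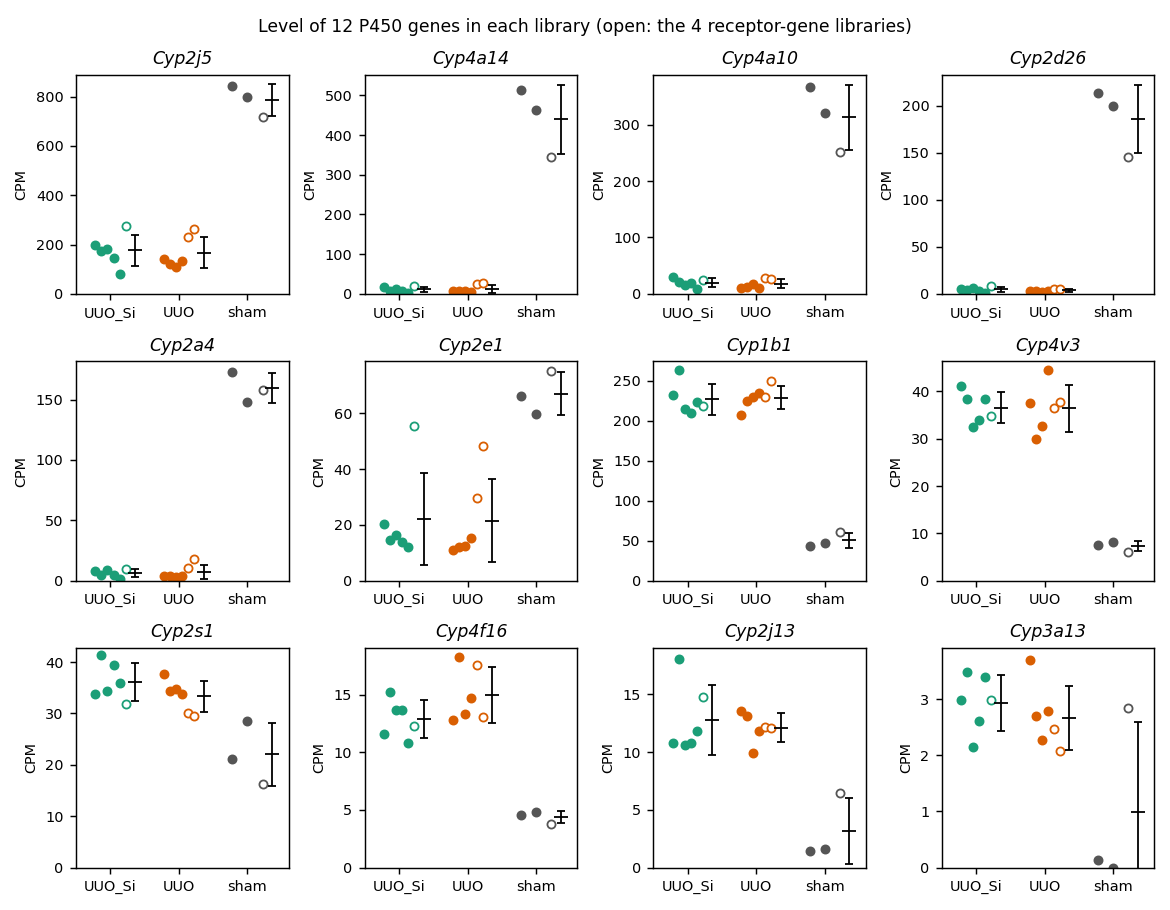
CPM (y axis) of 12 P450 genes in every library of the UUO_Si, UUO and sham groups; open circles are the 4 receptor-gene libraries, and the bar beside each group is the mean with 1 SD, drawn down to 0 at the lowest. Cyp2j5 to Cyp2e1 are higher in every sham library than in any obstructed library, Cyp1b1 to Cyp2j13 lower, and for Cyp3a13 sham replicate 3 lies at 2.84 CPM, among the obstructed libraries.

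Subfamily 2j, the arachidonic acid epoxygenases, had 6 tested members, of which 4 fell and 1 rose. Of all tested genes 26.4% fell and 27.5% rose. Of the 5 members above the count cutoff in both groups, 3 fell and 1 rose. Cyp2j5 (chr4:96628773-96664154, minus strand), the most abundant of all P450 transcripts per kilobase in each group, lay at 109, 139 and 265 CPM in UUO, against 844, 800 and 717 CPM in sham. The groups did not overlap, UUO replicates 5 and 6 (231 and 265 CPM) were the highest obstructed libraries on normal diet, and the log2 fold change was -2.23 ± 0.29 (edgeR adjusted p = 5.96e-06). Cyp2j11 averaged 25.9 ± 4.90 CPM in UUO and 166 ± 21.0 CPM in sham (log2 fold change -2.68 ± 0.21, edgeR adjusted p = 1.18e-08). Cyp2j9 and Cyp2j8 also fell, by 1.45 and 2.12 on the log2 scale. Cyp2j8 had an adjusted p of 0.0619 without sham replicate 3, and its counts were too low to test without UUO replicate 6 or without the receptor-gene libraries. Its UUO mean was under the count cutoff, so the filter set its direction. Cyp2j6 averaged 34.4 ± 7.58 CPM in UUO and 34.2 ± 1.70 CPM in sham. Its log2 fold change was 0.01 (approximate 95% interval of the fit -0.36 to 0.38). Cyp2j13, at the other end of the same cluster, lay at 9.90, 12.2 and 13.6 CPM in UUO, against 1.43, 1.60 and 6.43 CPM in sham. All UUO libraries were above all sham libraries, sham replicate 3 being the highest of its group, and the log2 fold change was 2.0 ± 0.36 (edgeR adjusted p = 1.40e-04; 3.0 without that library). The 2j genes share at most 1.34% of their 50-base words, and their cluster spans 636.6 kb.

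Subfamily 2d, counterparts of the human drug-metabolising CYP2D6, had 6 tested members, of which 4 fell, where 26.4% of all tested genes fell. Above the count cutoff in both groups were 3 of them, and all 3 fell. Cyp2d26 lay at 2.11, 2.96 and 5.64 CPM in UUO, against 213, 200 and 145 CPM in sham. The groups were far apart and the fall was 51.8-fold (log2 fold change -5.69 ± 0.33, edgeR adjusted p = 6.70e-10). Cyp2d12 lay at 0, 0.0807 and 0.991 CPM in UUO, against 26.5, 31.1 and 20.8 CPM in sham. Only UUO replicate 6 came near 1 CPM, and the log2 fold change was -6.94 ± 0.61 (edgeR adjusted p = 5.29e-08), or -8.54 without that library. Cyp2d12 passed the count filter through its sham level, so the filter set its direction, and the size rests on few UUO counts. Cyp2d9 averaged 2.32 ± 0.949 CPM in UUO and 5.85 ± 1.63 CPM in sham. Cyp2d22 overlapped between the groups, at 28.7 ± 7.70 CPM in UUO and 41.9 ± 10.6 CPM in sham (log2 fold change -0.55 ± 0.22, edgeR adjusted p = 0.0444), and its adjusted p was 0.241 without sham replicate 1. The 9 genes lie side by side in chr15:82370527-82794294, with the steepest falls at Cyp2d12 and at the far end, Cyp2d26, and the mildest at the near end, Cyp2d22. Other genes hold 40.5% of the 50-base words of Cyp2d10, 37.2% of Cyp2d11, 29.0% of Cyp2d9 and 17.9% of Cyp2d12. The division of reads among these is therefore uncertain. Cyp2d26 shares 10.5% and Cyp2d22 shares 6.14%.

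Among the genes of steroid and coumarin hydroxylation on chromosome 7, Cyp2a4 lay at 3.21, 4.20 and 17.6 CPM in UUO, against 173, 148 and 158 CPM in sham. UUO replicates 6 and 5 (17.6 and 10.4 CPM) were the highest of their group, and the log2 fold change was -4.47 ± 0.45 (edgeR adjusted p = 2.41e-07; -5.39 without the receptor-gene libraries). Cyp2a5 averaged 4.42 ± 2.65 CPM in UUO and 47.5 ± 10.1 CPM in sham (log2 fold change -3.43, or -4.11 without the receptor-gene libraries). Cyp2a4 and Cyp2a5 share 38.0% and 40.8% of their 50-base words with other genes, mainly each other, and their separate values are uncertain, while their sum fell to 12.1 ± 9.23 CPM for the subfamily in UUO, against 210 ± 10.1 CPM in sham. Cyp2s1, which in human is an epithelial P450 induced through AhR, lies in the same cluster and rose, at 29.5, 34.1 and 37.6 CPM in UUO against 21.2, 28.6 and 16.3 CPM in sham. The lowest UUO library was just above the highest sham library (log2 fold change 0.59 ± 0.15, edgeR adjusted p = 0.00248). Cyp2e1, the ethanol-inducible P450, lay at 11.1, 13.7 and 48.4 CPM in UUO, against 66.1, 59.7 and 75.1 CPM in sham. UUO replicates 5 and 6 (29.8 and 48.4 CPM) and UUO_Si replicate 6 (55.3 CPM) were far above the other obstructed libraries, and the log2 fold change was -1.64 ± 0.48 (edgeR adjusted p = 0.00778), or -2.30 without the receptor-gene libraries. Cyp2c44, an arachidonic acid epoxygenase and the single tested member of its subfamily, averaged 2.40 ± 1.81 CPM in UUO and 29.9 ± 4.42 CPM in sham (log2 fold change -3.63 ± 0.43, edgeR adjusted p = 1.49e-06; -4.57 without the receptor-gene libraries). Of 24 tested genes in family 2 as a whole, 15 fell, 2 rose and 7 did not pass. Of all tested genes 26.4% fell and 27.5% rose. Of the 17 family 2 genes above the count cutoff in both groups, 11 fell and 2 rose. The other falls were of Cyp2g1 (log2 fold change -3.94, or -5.97 without the receptor-gene libraries), Cyp2b9 (-3.31, or -4.00) and Cyp2u1 (-0.69). The UUO means of Cyp2g1 and Cyp2b9 were under the count cutoff, so the filter set their direction. The 7 that did not pass were Cyp2d10 (-1.21), Cyp2d11 (-1.07), Cyp2b23 (-1.22), Cyp2f2 (-1.19), Cyp2t4 (-0.53), Cyp2j6 (0.01) and Cyp2r1 (0.62). Without UUO replicate 6, Cyp2f2 (-2.10, edgeR adjusted p = 0.0254) and Cyp2b23 (-2.65, 0.0487) passed. Cyp2f2 stood at -2.38 (edgeR adjusted p = 0.00318) without the receptor-gene libraries, but at -0.79 (0.527) without sham replicate 3. Cyp2r1 rose without sham replicate 3 and without the receptor-gene libraries.

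**Figure D4:**
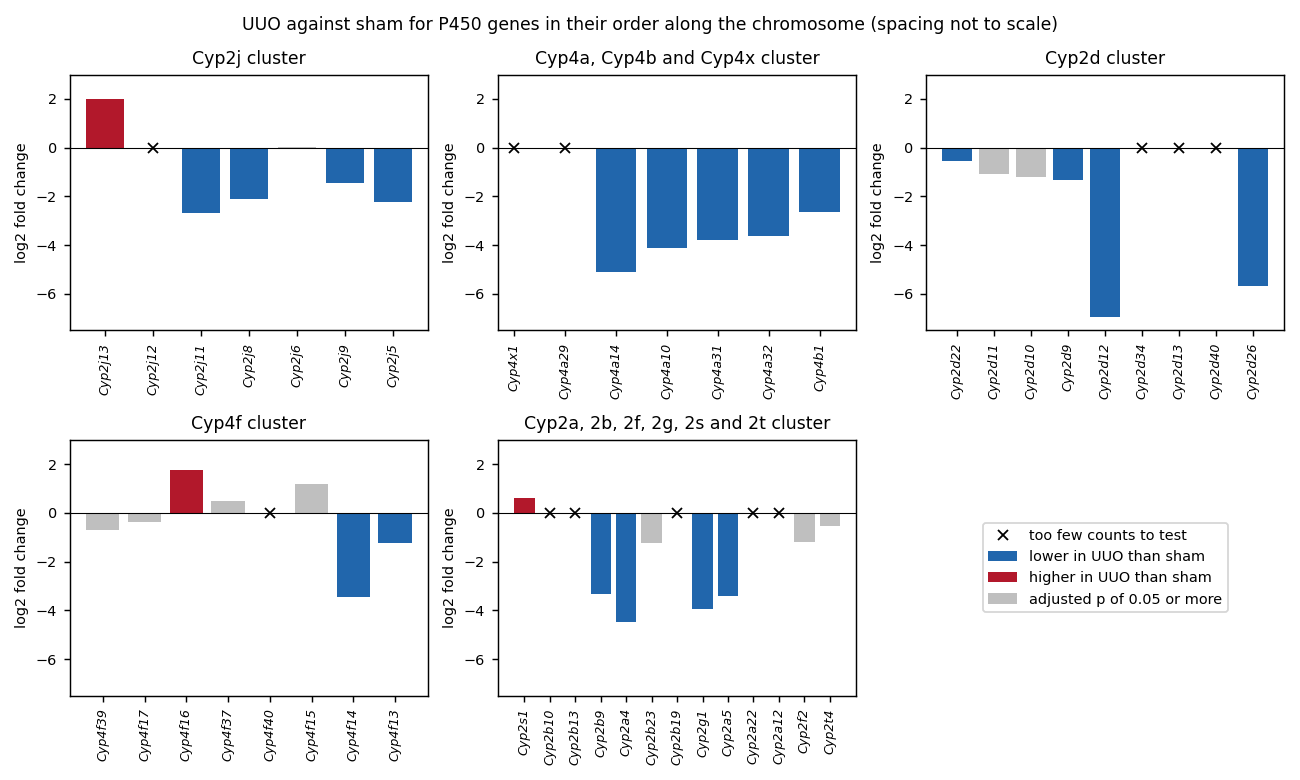
Log2 fold change of UUO against sham (y axis) for the P450 genes of 5 chromosomal clusters in genome order (x axis, spacing not to scale); crosses are genes with too few counts to test. All 5 tested genes of the Cyp4a, Cyp4b and Cyp4x cluster fell. The Cyp2j, Cyp4f and Cyp2a to Cyp2t clusters each hold genes that fell and at least 1 that rose. Of all tested genes 26.4% fell and 27.5% rose.

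Cyp1b1 (chr17:79701537-79715061, minus strand), which hydroxylates oestradiol and polycyclic hydrocarbons and is expressed in mesenchymal and vascular cells, lay at 207, 229 and 250 CPM in UUO, against 42.9, 47.7 and 61.1 CPM in sham. The groups were wide apart, no 50-base word of it occurs in another gene, and the rise was 4.54-fold (log2 fold change 2.18 ± 0.12, edgeR adjusted p = 3.08e-10). Cyp1a1, the standard target of AhR, averaged 0.451 ± 0.463 CPM in UUO, and 0.572, 0.319 and 1.89 CPM were found in the sham libraries (log2 fold change -0.98 ± 0.90, edgeR adjusted p = 0.373). Of 6 other AhR targets, Ugt1a6a (log2 fold change -2.85) and Nqo1 (-1.12) fell, Aldh3a1 rose (2.15), and 3 did not pass. Over all tested genes 26.4% fell and 27.5% rose, so these counts do not set the 6 apart. The call of Aldh3a1 was lost under 5 alternatives (adjusted p up to 0.147) and that of Nqo1 under 3 (up to 0.0858), while Ahr itself, named after its value was seen, averaged 47.6 ± 2.76 CPM in UUO and 21.6 ± 1.72 CPM in sham. The fibroblast and mural markers rose beside Cyp1b1, and their part in its rise was not tested.

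In the sterol and bile acid families the directions differed by gene. Cyp7b1, the oxysterol 7-hydroxylase, lay at 5.67, 7.72 and 11.1 CPM in UUO, against 3.58, 1.76 and 6.81 CPM in sham. Sham replicate 3 lay within the UUO range, and the log2 fold change was 0.99 ± 0.33 (edgeR adjusted p = 0.0168), and leaving out sham replicate 1 or 2 ended the call (adjusted p = 0.0653 and 0.105). Cyp39a1, which hydroxylates 24-hydroxycholesterol, averaged 17.8 ± 1.44 CPM in UUO and 8.74 ± 2.04 CPM in sham, without overlap (log2 fold change 1.03 ± 0.18, edgeR adjusted p = 1.21e-04). Cyp27a1, the mitochondrial sterol 27-hydroxylase, averaged 29.7 ± 8.12 CPM in UUO and 49.9 ± 7.03 CPM in sham (log2 fold change -0.75 ± 0.23, edgeR adjusted p = 0.0120; 0.0716 without sham replicate 1). Cyp46a1, the cholesterol 24-hydroxylase, averaged 2.28 ± 0.742 CPM in UUO and 3.51 ± 1.09 CPM in sham, and Cyp8b1, the sterol 12-hydroxylase, 0.768 ± 0.458 CPM in UUO and 1.03 ± 1.25 CPM in sham. Neither passed the test (edgeR adjusted p = 0.234 and 0.756).

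Cyp17a1, the 17-hydroxylase of steroid synthesis, lay at 0.126, 0.401 and 1.24 CPM in UUO, against 1.86, 2.39 and 3.03 CPM in sham. The log2 fold change was -2.29 ± 0.57 (edgeR adjusted p = 0.00258). The UUO mean of Cyp17a1 was under the count cutoff, so the filter set its direction. Cyp11b1, the 11-hydroxylase of the adrenal cortex, lay at 0, 0.242 and 1.40 CPM in UUO, against 0, 0 and 2.27 CPM in sham, so its counts came from few libraries, the receptor-gene libraries above all (edgeR adjusted p = 0.860). Of 7 adrenal cortex markers 3 were tested, and 1 of them, Fdx1, which the kidney also expresses, fell. The summed level of the 7 was 26.7 CPM in UUO and 56.5 CPM in sham, of which Fdx1 made up 9.86 CPM in UUO and 37.4 CPM in sham. Cyp20a1, a P450 with no known substrate, averaged 29.3 ± 2.18 CPM in UUO and 20.9 ± 2 CPM in sham, without overlap (log2 fold change 0.49 ± 0.12, edgeR adjusted p = 0.00331).

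The retinoic acid hydroxylases of family 26, which inactivate retinoic acid, pointed down. Cyp26b1 lay at 1.27, 2.62 and 3.53 CPM in UUO, against 24.3, 34.2 and 24.6 CPM in sham. The groups were far apart and the fall was 10.7-fold (log2 fold change -3.42 ± 0.35, edgeR adjusted p = 3.48e-07). Cyp26a1 averaged 0.552 ± 0.432 CPM in UUO and 2.32 ± 1.27 CPM in sham (log2 fold change -2.05 ± 0.64, edgeR adjusted p = 0.0120), and its adjusted p was 0.0870 without sham replicate 3. Leaving out all 4 receptor-gene libraries gave -1.26 on the log2 scale (adjusted p = 0.132). The UUO mean of Cyp26a1 was under the count cutoff, so the filter set its direction. Cyp26c1 averaged 0.634 ± 0.675 CPM in UUO and 1.88 ± 1.16 CPM in sham and did not pass (edgeR adjusted p = 0.123). Beside this, of 11 tested genes of retinoid handling 7 rose and 1 fell, where 27.5% of all tested genes rose and 26.4% fell. Stra6, the retinol uptake receptor, averaged 34.1 ± 4.61 CPM in UUO and 2.54 ± 1.18 CPM in sham (log2 fold change 3.79). Rdh10, which oxidises retinol, rose too (1.71). Aldh1a2, which makes retinoic acid and was named after its value was seen, averaged 181 ± 101 CPM in UUO and 12 ± 2.56 CPM in sham (log2 fold change 3.91 ± 0.50, edgeR adjusted p = 4.28e-06).

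Cyp3a13, the single tested member of the drug-metabolising family 3, lay at 2.07, 2.58 and 3.69 CPM in UUO, against 0.143, 0 and 2.84 CPM in sham. Sham replicate 3 lay within the UUO range and the other sham libraries near 0. The log2 fold change was 1.52 ± 0.65 (edgeR adjusted p = 0.0596), and 4.95 (adjusted p = 5.6e-06) without sham replicate 3. DESeq2 called it with all 15 libraries at the same size (adjusted p = 0.0125), so its call depends on the test as well as on that library.

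Partners of the P450 enzymes fell in several of the lists, though not in all. Of all tested genes 26.4% fell and 27.5% rose, against which the counts below stand. Of 7 tested electron donors 5 fell and 1 rose in UUO against sham. Por averaged 129 ± 17.7 CPM in UUO and 475 ± 64.9 CPM in sham (log2 fold change -1.88 ± 0.13, edgeR adjusted p = 5.27e-09), Fdx1 fell by 1.92 and cytochrome b5 (Cyb5a) by 1.21 on the log2 scale. Of 13 genes of haem synthesis and breakdown 7 fell and 1 rose. Alas1, the first enzyme of haem synthesis, averaged 70.5 ± 8.70 CPM in UUO and 375 ± 74.9 CPM in sham (log2 fold change -2.41 ± 0.13), and Alad and Cpox, later steps, fell by 1.09 and 0.97. Of 24 tested nuclear receptors and factors of P450 genes 13 fell and 5 rose, with Nr1h4, the bile acid receptor, at -2.77 and the coactivator Ppargc1a at -2.14. All 13 tested targets of PPARα outside the P450 genes fell, among them the peroxisomal Acaa1b (log2 fold change -3.47) and Acot3 (-3.69), against 26.4% of all tested genes. Ppara, named after its value was seen, averaged 20.8 ± 6.96 CPM in UUO and 150 ± 35.1 CPM in sham. Of 10 tested eicosanoid partners 2 fell and 2 rose, no larger a share than among all tested genes. Pla2g4a, which releases arachidonic acid, stood at 1.60, Ephx2, which hydrolyses its epoxides, at -1.26 and Pla2g6 at -0.84. Of 5 tested P450 genes with other symbols, Cyp51 of cholesterol synthesis fell by 2.87 on the log2 scale, and the prostacyclin and thromboxane synthases Ptgis and Tbxas1 rose by 1.51 and 0.50. The call of Tbxas1 was lost under 7 alternatives, with adjusted p up to 0.145. Many of these genes are high in proximal tubule, whose markers fell, and the part of that in these values was not tested.

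**Figure D5:**
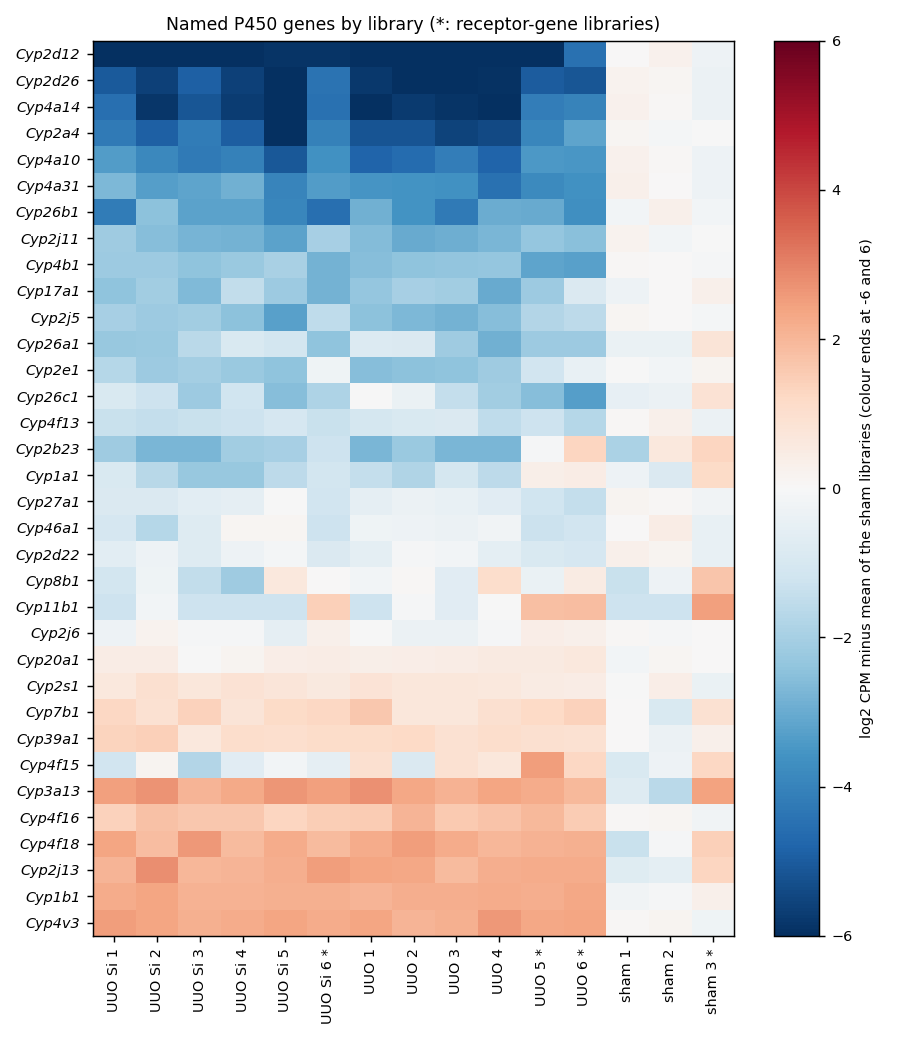
Log2 CPM minus the mean of the sham libraries for the 34 named P450 genes (rows, ordered by the log2 fold change of UUO against sham) in 15 libraries (columns); blue is lower and red higher than sham, and the colour ends at 6 units either way. UUO_Si and UUO columns look alike in most rows, and sham replicate 3 is red for Cyp3a13, Cyp4f18 and Cyp2j13.

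Between the diets no P450 gene of the obstructed kidney passed the test in UUO_Si against UUO. The median log2 fold change of the 52 genes was -0.06, with 29 below 0. No gene of the whole table passed either, so the share of all tested genes called was 0%. At an unadjusted p under 0.05 there were 3 P450 genes, and 626 (3.74%) of all tested genes. UUO_Si and UUO libraries did not separate for any P450 gene, against 0.107% of all tested genes that lay higher in every UUO_Si library and 0.0955% that lay lower. DESeq2 called 2 genes of the table and no P450 gene. The 3 genes were Cyp4f15, Cyp4a31 and Cyp4b1. Cyp4a31 lay at 23.8, 40.1 and 58.2 CPM in UUO_Si, against 16.5, 30.3 and 32.2 CPM in UUO, with overlap (log2 fold change 0.59 ± 0.19, unadjusted p = 0.00731, edgeR adjusted p = 0.999). In sham libraries Cyp4a31 was between 301 and 469 CPM. Cyp4b1 averaged 31.0 ± 6.26 CPM in UUO_Si and 23.9 ± 6.32 CPM in UUO (log2 fold change 0.37 ± 0.17, edgeR unadjusted p = 0.0437), and the low UUO libraries were replicates 5 and 6 (16.5 and 15.5 CPM). Cyp4f15 lay at 0, 0.229 and 0.513 CPM in UUO_Si, against 0.154, 1.03 and 3.42 CPM in UUO (log2 fold change -2.38 ± 0.72, edgeR unadjusted p = 0.00422), a gene near the lower limit of counting.

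For the well-counted members the intervals of the diet difference were narrow. The 95% interval of the log2 fold change in UUO_Si against UUO was -0.18 to 0.15 for Cyp1b1, -0.19 to 0.20 for Cyp4v3, -0.20 to 0.50 for Cyp2j11 and -0.42 to 0.56 for Cyp2j5. It was -1.01 to 0.72 for Cyp4a14 and -0.22 to 1.05 for Cyp2d26, whose obstructed levels were low. The intervals use a normal approximation and are somewhat narrower than the test itself would give. These bounds are not limits of detection, and differences beyond them could also have gone uncalled. Cyp4a31, with an interval of 0.21 to 0.96 in UUO_Si against UUO, had an edgeR adjusted p of 0.999. The smallest difference that would have passed was not tested.

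Against sham, UUO_Si libraries gave 28 P450 genes that fell and 10 that rose, where 25.5% of all tested genes fell, 27.2% rose and 52.7% did either. The median over the 52 genes was -1.43 on the log2 scale. For 26 P450 genes every UUO_Si library lay below every sham library, against 21.8% of all tested genes, and for 7 above, against 24%. Of the 33 above the cutoff in both groups, 18 fell and 9 rose, against 3981 and 4263 of the 15087 tested genes above it. This comparison shares its sham libraries with that of UUO. Cyp2d26 had a log2 fold change of -5.28 in UUO_Si and -5.69 in UUO, Cyp4a14 -5.24 and -5.10, Cyp26b1 -3.53 and -3.42, Cyp2j5 -2.16 and -2.23, Cyp1b1 2.17 and 2.18, and Cyp4v3 2.32 and 2.32, each against sham. Among the calls of UUO_Si against sham, 4 were of genes that missed the threshold in UUO: Cyp1a1 (log2 fold change -2.65, edgeR adjusted p = 0.0354), Cyp2b23 (-3.60, 0.0407), Cyp2f2 (-2.53, 0.0283) and Cyp3a13 (1.66, 0.0433). All 4 lay under 3 CPM on average in each group, and the difference between UUO_Si and UUO did not pass for any of them (edgeR adjusted p = 0.999 for each). Without sham replicate 3 the edgeR adjusted p was 0.269 for Cyp1a1, 0.163 for Cyp2b23 and 0.104 for Cyp2f2, while Cyp3a13 stood at a log2 fold change of 5.09. Cyp1a1 and Cyp2b23 had too few counts to test without the receptor-gene libraries. Cyp2f2 also missed the threshold in 5 other fits that left out 1 library, and Cyp3a13 under 14 alternatives, with adjusted p up to 0.173. In UUO against sham, in turn, Cyp2f2, Cyp2b23 and Cyp3a13 passed under some alternatives, so these calls do not set UUO_Si apart from UUO.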

How the data were processed

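Per the labels' protocols, kidney was kept in RNAlater, RNA was extracted by RNeasy, and the library kit was of the SMARTer stranded Pico type. The authors deposited 1 table of expected counts per gene, unnormalised; mm10, TopHat2 2.1.1 and Cuffdiff 2.2.1 are named in the submitters' processing notes, and the counting tool, annotation and strand setting are not given in the sources used here. Before testing, the deposited expected counts were rounded. All 15 libraries were fitted together in edgeR 4.0.16 (R 4.3.3) with TMM scaling, a minimum count of 10 (filterByExpr) and the robust quasi-likelihood test, 1 mean per group. P-values were adjusted over all 16752 tested genes, and calls are at adjusted p under 0.05. CPM use TMM-scaled totals. Standard errors were derived from the F statistic. The steps were tested on simulated counts.

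Positions and exon lengths are from GENCODE M21 (GRCm38, which is mm10), with RefSeq for Cyp2c44 and Cyp2d13. The labels do not say that libraries came from separate animals, so p-values measure only the spread between these libraries, which may be technical. Counting error alone limits low values. The members and lists were chosen with earlier results of these data known. Named genes are the most abundant tested genes of families 2 (8), 3 (up to 3, of which 1 was tested) and 4 (6), every tested gene of other families, every gene that rose, the 5 largest falls and rises, the 5 smallest p for the diet and up to 3 genes per partner list (some are not reported here); other tested genes are named for completeness of a subfamily, after their values were seen. Same-numbered libraries of different groups share only a number. Alternatives were DESeq2 1.42.0, RLE scaling, no filter, a minimum count of 30, the replicate block, fits of 2 groups, leaving out each library and leaving out the receptor-gene libraries.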

Additional observations from a re-analysis of the deposited data

Results flagged for a closer look

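In 68 groups of UUO_Si or UUO values for named P450 genes, 7 had 1 library far from the rest of its group. Chance alone flags about 1 in 20 such groups if values are normal and independent. Low CPM from the same libraries need not be either. The sham group, with 3 libraries, was not checked. Cyp2e1 was 55.3 CPM in UUO_Si replicate 6, against 12.2 to 20.3 CPM in the other UUO_Si libraries. Cyp11b1 was 0.998 CPM in the same library, against 0 to 0.205 CPM. In UUO replicate 6, Cyp2d12 was 0.991 CPM against 0 to 0.127 CPM in the other UUO libraries, Cyp17a1 1.24 CPM against 0.126 to 0.461 CPM, and Cyp2b23 2.89 CPM against 0 to 1.01 CPM. Cyp4f15 was 3.42 CPM in UUO replicate 5, against 0.154 to 1.32 CPM. These 6 values are in the receptor-gene libraries. Cyp4a31 was 16.5 CPM in UUO replicate 4, against 26.6 to 32.2 CPM in the other UUO libraries.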

How the results depend on the processing

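Each count of P450 genes stayed within 1.5 times its value under every alternative run. In UUO against sham the genes that fell numbered 21 with a minimum count of 30, 26 with DESeq2, 25 without the receptor-gene libraries and 24 to 26 when 1 library was left out, and those that rose 9, 10, 11 and 8 to 12. In UUO_Si against sham the genes that fell numbered 21, 30, 25 and 23 to 29, and those that rose 9, 10, 10 and 7 to 10. UUO_Si against UUO gave 0 throughout. With the replicate block, 26 fell and 9 rose in UUO against sham, 25 fell and 8 rose in UUO_Si against sham, and 0 passed in UUO_Si against UUO. Same-numbered libraries correlated between -0.390 and 0.754, so the numbers do not pair them. No named gene that passed the test changed direction. Among the P450 genes still tested, the UUO against sham calls of Cyp2d22 (12 alternatives), Cyp26a1 (3), Cyp7b1 (2), Cyp27a1 (1) and Cyp2j8 (1) were lost. In UUO_Si against sham the lost calls were those of Cyp3a13 (14 alternatives), Cyp20a1 (10), Cyp2b23 (8), Cyp1a1 (7), Cyp2u1 (7), Cyp2f2 (6), Cyp27a1 (6), Cyp26a1 (3), Cyp2j8 (3), Cyp2d9 (2), Cyp7b1 (2) and Cyp2g1 (1). Among the called genes, Cyp17a1, Cyp2g1, Cyp4f14, Cyp2j8, Cyp26a1, Cyp1a1, Cyp2b23 and Cyp2f2 were not tested with a minimum count of 30. With all 15 libraries, Cyp1a1, Cyp2b23 and Cyp2f2 had been called in UUO_Si against sham alone. Calls gained in UUO against sham under some alternatives were those of Cyp2b23, Cyp2f2, Cyp2r1, Cyp3a13, Cyp4f37, Cyp26c1 and Cyp2c40. Cyp1a1, Cyp2b23 and Cyp2j8 were also not tested without the receptor-gene libraries. Among the partner genes named, Tbxas1 (7 alternatives), Aldh3a1 (5) and Nqo1 (3) lost their UUO against sham calls. The rise of Cyb5r3 among the electron donors was lost with the replicate block. Genes under about 1 CPM rest on few counts in the sham libraries, the shallowest of the 3 groups, and changes in them were poorly detectable.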
